A study of Mus musculus with 32 samples.

Results

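The effect of the Smim30 knockout in liver was set against its effect in heart, gene by gene, as the Mut minus WT difference in liver minus the Mut minus WT difference in heart. The comparison used 16 of the 32 RNA sequencing libraries of the series, 4 each of liver Mut, liver WT, heart Mut and heart WT. Mut libraries come from SMIM30 knockout mice and WT libraries from wild-type mice, all male and of the strain C57BL/6J. The submitters describe 4 individual mice for a tissue, and the ages, the structure of the allele and any link between the liver and heart libraries of a mouse are not stated by the sources used here. A gene was tested where its mean was at least 1 TPM (TPM is an abundance corrected for transcript length and scaled to a fixed sum per library) over the 8 liver libraries and over the 8 heart libraries. This held for 10609 of 51510 genes, while 1385 genes passed in liver only and 1410 in heart only and were not tested.

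Smim30 encodes a small membrane protein that, in human cells, is made from an RNA long annotated as noncoding. Liver is built mostly of hepatocytes, which secrete the plasma proteins and carry out lipid, sterol and drug metabolism, beside endothelial cells, macrophages and stellate cells. Heart is built of cardiomyocytes of atrial and ventricular type, which use different myosin light chains, and the atrial cells also store the natriuretic peptide Nppa.

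The libraries carried the defining markers of their labelled tissue, and the markers of each tissue were listed at a low level in the other. The 14 hepatocyte markers summed to between 97842 and 119955 TPM in liver Mut and between 103776 and 125153 TPM in liver WT, against 1086 to 1340 TPM in heart Mut and 1161 to 1257 TPM in heart WT. The 14 ventricular cardiomyocyte markers summed to between 26750 and 39836 TPM in heart Mut and between 39920 and 42548 TPM in heart WT, against 684 to 855 TPM over the liver libraries. Each hepatocyte marker stood in heart at 0.985% to 1.35% of its liver level in Mut and at 0.835% to 1.14% in WT. A gene at about 1% of its level in the other tissue is therefore not read here as expressed in it. Mitochondrially encoded genes held 45.9% ± 5.92 of the TPM in heart Mut and 42.0% ± 1.16 in heart WT (SD, n = 4 each), with 54.5% in heart Mut library 2. In liver they held 12.5% ± 1.45 in Mut and 11.7% ± 1.81 in WT (SD, n = 4 each).

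Smim30 itself (chr6:13867735-13871518 (- strand), GRCm38) had 25.6, 20.6, 17.3 and 20.9 TPM in the 4 liver Mut libraries, against 18.6, 25.5, 22.5 and 26.4 TPM in liver WT. In heart it had 23.5, 17.8, 25.8 and 27.4 TPM in Mut, against 32.7, 37.6, 33.7 and 34.5 TPM in WT. The Mut and WT libraries overlapped in liver and did not overlap in heart. The log2 fold change, Mut over WT, was -0.13 in liver (SE 0.14, exact permutation p = 0.429) and -0.55 in heart (SE 0.14, exact permutation p = 0.0286, the smallest that 4 against 4 libraries allow). The difference between the effects was 0.42 with a 95% interval of 0.01 to 0.83, and it missed the threshold in limma (adjusted p = 0.196). A two-sided exact permutation test of this difference, with genotype permuted within the tissues, gave p = 0.156. Its null is no effect of genotype in either tissue, so it is not a test of equal effects. The RNA of the targeted gene thus did not set the liver libraries labelled Mut apart from those labelled WT, and which part of the gene was deleted is not given in the sources used here. None of the 5 genes tested within 1 Mb of Smim30 had a called effect in liver, in heart or in the difference. The nearest of them, 1110019D14Rik, spans 13871526 to 14044385 on chr6, directly beside the end of Smim30 at 13871518. It had a called mean effect over both tissues of 0.33 (limma adjusted p = 0.0451), with its liver groups apart.

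Across all genes on TPM as deposited, a difference between the knockout effects was called for few genes, and those were mostly genes that rose in liver. A difference that was not called does not show equal effects. The difference was called for 177 of 10609 genes (1.67%, limma, Benjamini-Hochberg adjusted p under 0.05), with 173 (1.63%) higher in liver than in heart and 4 (0.0377%) lower. In the same fit, 935 genes were called in liver (8.81%, 838 or 7.9% higher and 97 or 0.914% lower in Mut) and 16 in heart (0.151%, 1 or 0.00943% higher and 15 or 0.141% lower in Mut). A gene is called liver-side where the difference and the liver effect passed and the heart effect did not, and heart-side for the reverse. There were 159 liver-side genes, of which 155 rose and 4 fell in liver Mut, and 7 heart-side genes, all lower in heart Mut. Another 11 genes had a called difference with neither effect called, and 0 genes had both effects called in opposite directions. At an unadjusted limma p under 0.05 there were 2606 genes in the difference, 2785 in liver and 1531 in heart. Of the 935 genes called in liver, 776 had no called difference, so their effect is not shown to differ between the tissues.

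**Figure D1:**
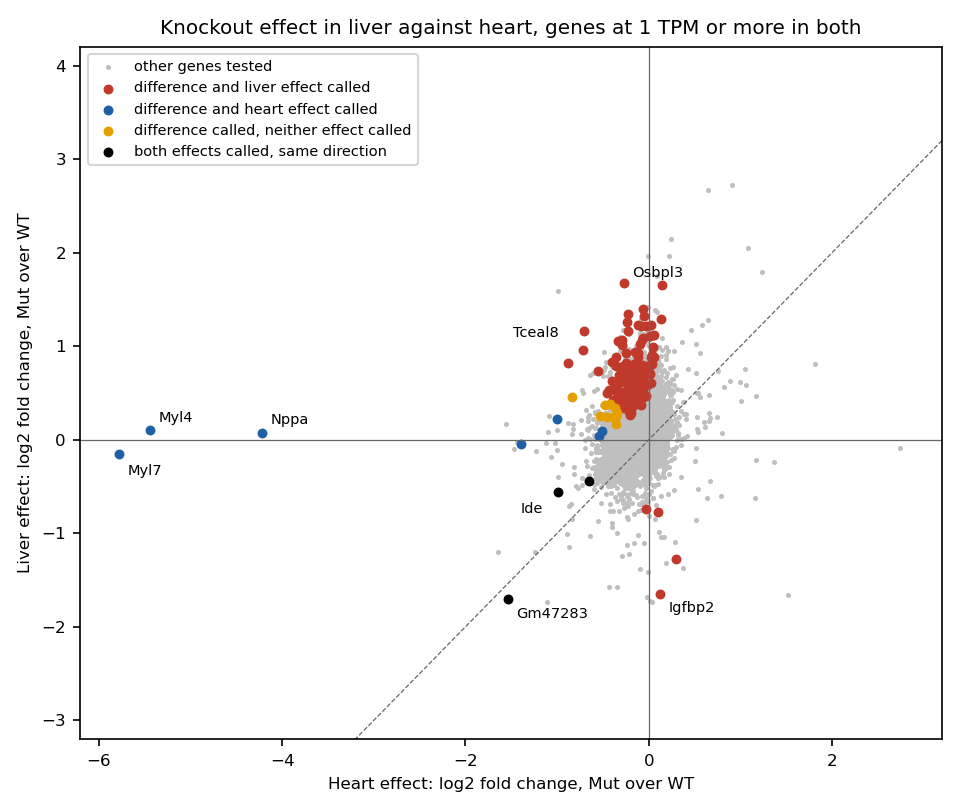
Knockout effect in liver (vertical axis) against heart (horizontal axis) as log2 fold changes, Mut over WT, for 10609 genes, with the dashed line marking equal effects. The 159 liver-side genes (red) lie mostly above 0 in liver, with heart effects of -0.88 to 0.30, 3 atrial genes lie far to the left, and 3 shared genes (black) are low in both tissues.

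The scale of the values matters to these counts, because the median log2 fold change of all genes tested was 0.10 in liver and -0.11 in heart, and the median difference was 0.22. Median-ratio scaling within each tissue, which divides each library by its median ratio to a reference library, brought these medians to 0.00. It gave 57 called differences (0.537%), 38 higher (0.358%) and 19 lower (0.179%). In liver it gave 1374 calls (13%), 710 higher (6.69%) and 664 lower (6.26%), and in heart 14 (0.132%), 1 higher (0.00943%) and 13 lower (0.123%). Rescaling without mitochondrially encoded and the 10 most abundant genes gave 27, of which 23 were higher and 4 lower. The 2 fits on TPM and on median-ratio values shared 42 calls, 38 higher and 4 lower, of which 37 were liver-side and 5 heart-side in both, and 24 genes were called under all 3 scalings. The liver-side and heart-side genes named below passed on TPM and with median-ratio scaling, except where stated. Among those that passed both, the differences of Sulf2, Aldh1b1, Srxn1, Eif4ebp3, Apom and Chd2 were lost with rescaling.

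The number of called differences also moved with single libraries. It fell to 28 without heart WT library 4, 35 without heart WT library 2, 42 without liver WT library 3, 45 without heart Mut library 1, 59 without heart Mut library 2, 63 without liver Mut library 1, 71 without liver WT library 1, 96 without liver Mut library 2 and 104 without heart WT library 3, and rose to 323 without heart WT library 1 and 379 without heart Mut library 3. All 28, 35, 45 and 59 of the calls in those 4 fits were among the 177. Heart Mut library 2, the one with the highest mitochondrial share, also had the lowest median-ratio size factor, 0.821, and the part of this in the result was not tested beyond the value of 59 without it. Of 28 called differences named below and followed over the 16 fits that left out a library, 10 were called in each. These were Osbpl3, Tceal8, Anxa2, Uap1l1, Fam241b, Sulf2, Papss1, Myl7, Myl4 and Ramp1. The called differences of Mcm6, Gm12161 and Gm15787, also named below, were not followed gene by gene.

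**Figure D2:**
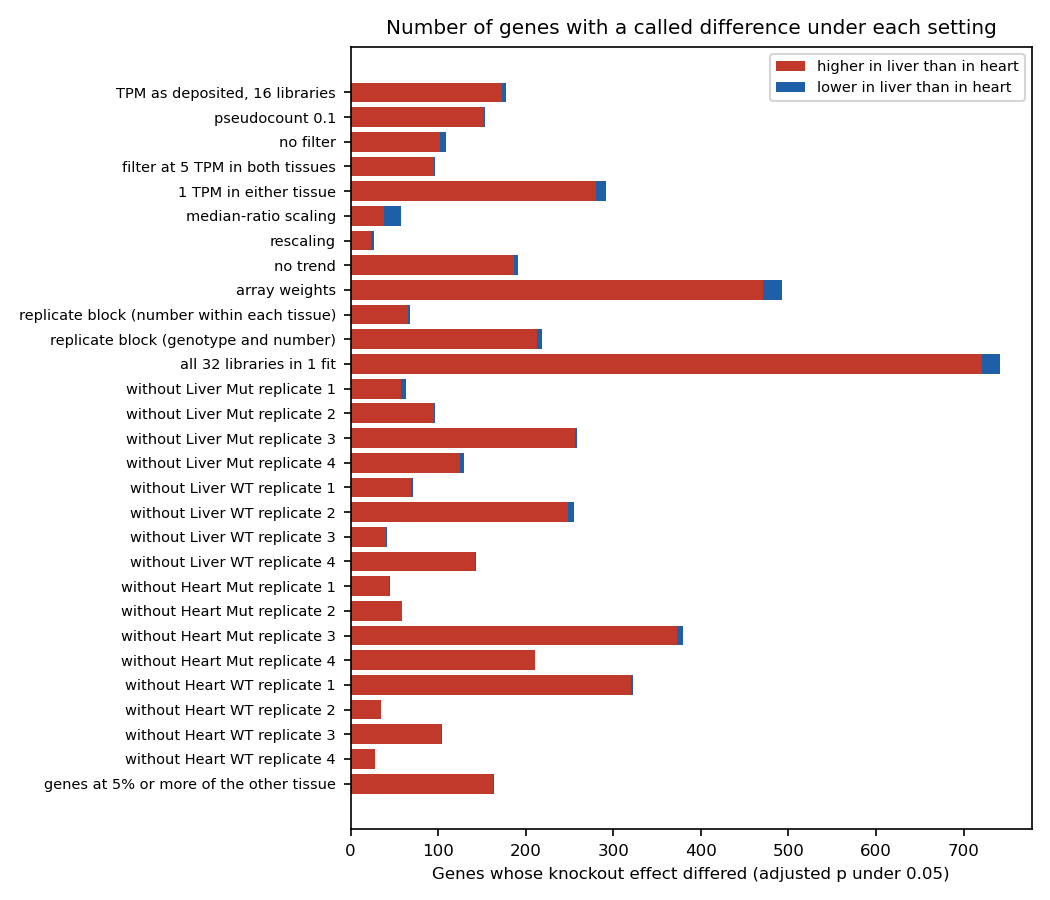
Number of genes with a called liver minus heart difference (horizontal axis) under each setting (rows), split into genes higher (red) and lower (blue) in liver than in heart. The bar for TPM as deposited stands at 177, that for median-ratio scaling at 57, and the bars that leave out a library run between 28 and 379.

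Of the liver-side rises named here, Osbpl3 had the largest difference. Osbpl3 (chr6:50293330-50456201 (- strand)), a lipid transfer protein of membrane contact sites, had 13.4, 9.39, 9.76 and 15.7 TPM in liver Mut, against 3.54, 4.82, 1.50 and 2.94 TPM in liver WT. In heart it had 4.63, 2.97, 4.76 and 4.77 TPM in Mut, against 4.61, 4.72, 5.03 and 7.20 TPM in WT. Every liver Mut library lay above every liver WT library, while the heart groups overlapped. The difference between the effects was 1.95 (SE 0.31, adjusted p = 0.00856), made of 1.67 in liver and -0.27 in heart on the log2 scale.

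Papss1 (chr3:131564768-131643671 (+ strand)), which makes the activated sulphate donor used by all sulphotransferases, was chosen after its values were seen, as the gene with the smallest p among the liver-side genes. It had 9.29, 7.45, 7.39 and 7.85 TPM in liver Mut, against 2.05, 3.13, 2.53 and 2.65 TPM in liver WT, and 3.49, 2.49, 3.84 and 3.97 TPM in heart Mut, against 3.44, 4.06, 3.23 and 3.60 TPM in heart WT. The lowest liver Mut library was more than 2 times the highest liver WT library, and the heart groups overlapped. Its difference was 1.38 (SE 0.17, adjusted p = 0.00224), and leaving out any 1 library gave differences of 1.27 to 1.45. Sulf2, which removes sulphate groups from heparan sulphate outside the cell, averaged 11.5 ± 2.65 TPM in liver Mut and 4.56 ± 1.10 TPM in liver WT, against 10.0 ± 1.53 TPM in heart Mut and 12.0 ± 2.53 TPM in heart WT (SD, n = 4 each). The difference for Sulf2 was 1.39 (SE 0.25, adjusted p = 0.0140). In WT its level was lower in liver than in heart, and the liver Mut libraries lay within or near the range of the heart libraries.

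Anxa2, which binds membrane phospholipids in the presence of calcium, showed a like pattern. It had 44.3, 27.3, 28.2 and 33.1 TPM in liver Mut, against 11.1, 17.1, 11.2 and 13.6 TPM in liver WT, while the heart libraries spanned 27.8 to 42.6 TPM in Mut and 39.8 to 47.6 TPM in WT. The difference was 1.50 (SE 0.23, adjusted p = 0.00739), with a liver effect of 1.26 and a heart effect of -0.24. In heart the Mut and WT libraries of Anxa2 overlapped.

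For Tceal8 and Fam241b the groups stood apart in both tissues, in opposite directions. Tceal8, a member of a family related to a transcription elongation factor, had 58.4, 49.0, 35.0 and 27.1 TPM in liver Mut, against 13.5, 26.5, 14.7 and 18.0 TPM in liver WT, and 8.44, 6.27, 7.86 and 7.92 TPM in heart Mut, against 13.1, 13.2, 11.1 and 14.8 TPM in heart WT. Its liver effect was 1.16 (adjusted p = 0.00436) and its heart effect -0.71, which was not called (adjusted p = 0.225), so that the difference came to 1.87 (SE 0.30, adjusted p = 0.00856). Fam241b, a gene whose function is little known, spanned 3.42 to 5.13 TPM in liver Mut and 1.36 to 2.45 TPM in liver WT, against 1.05 to 1.41 TPM in heart Mut and 1.69 to 2.23 TPM in heart WT. Its difference was 1.39 (SE 0.19, adjusted p = 0.00224). Among the 159 liver-side genes, the heart effect had the sign opposite to the liver effect in 146, and choosing genes by a called difference favours such opposite signs. The signs were opposite in 58.5% of all genes tested and in 63.7% of the 935 genes called in liver on TPM, and with median-ratio scaling the signs were the same in 60.4% of all genes. The median heart effect of all genes was -0.11. The heart groups stood apart in that opposite direction in 19 of the 159 and in the same direction in 0, while over all genes the heart groups did not overlap in 7.92%, 0.292% upward and 7.63% downward. The liver groups stood apart in 152 of the 159, a share the choice of these genes sets, and in 16.6% of all genes, 14.6% upward and 2.03% downward.

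Uap1l1, a relative of the enzyme that makes UDP-N-acetylglucosamine, averaged 4.65 ± 1.85 TPM in liver Mut and 1.08 ± 0.260 TPM in liver WT, and 1.98 ± 0.709 TPM in heart Mut and 2.06 ± 0.185 TPM in heart WT (SD, n = 4 each), with a difference of 1.46 (adjusted p = 0.0170). Plvap, which forms the diaphragms of endothelial fenestrae, averaged 30.2 ± 5.28 TPM in liver Mut and 16.5 ± 1.89 TPM in liver WT, and 3.90 ± 1.90 TPM in heart Mut and 7.93 ± 2.79 TPM in heart WT (SD, n = 4 each). Its difference of 1.70 (adjusted p = 0.0187) was lost without heart WT library 2 or 4 (adjusted p = 0.0507 to 0.0511, range over its alternatives 0.000937 to 0.0593). Its liver call was also lost without liver WT library 1, 3 or 4 and without liver Mut library 1, 2 or 4 (adjusted p = 0.0551 to 0.110). Aldh1b1, a mitochondrial aldehyde dehydrogenase, had a difference of 1.67 (adjusted p = 0.0365), made of 0.96 in liver and -0.71 in heart. The Aldh1b1 call was among those lost without single libraries, given with the gene groups below. Its liver call was lost without liver WT library 1 or 3 and without liver Mut library 1 or 4 (adjusted p = 0.0783 to 0.0966).

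**Figure D3:**
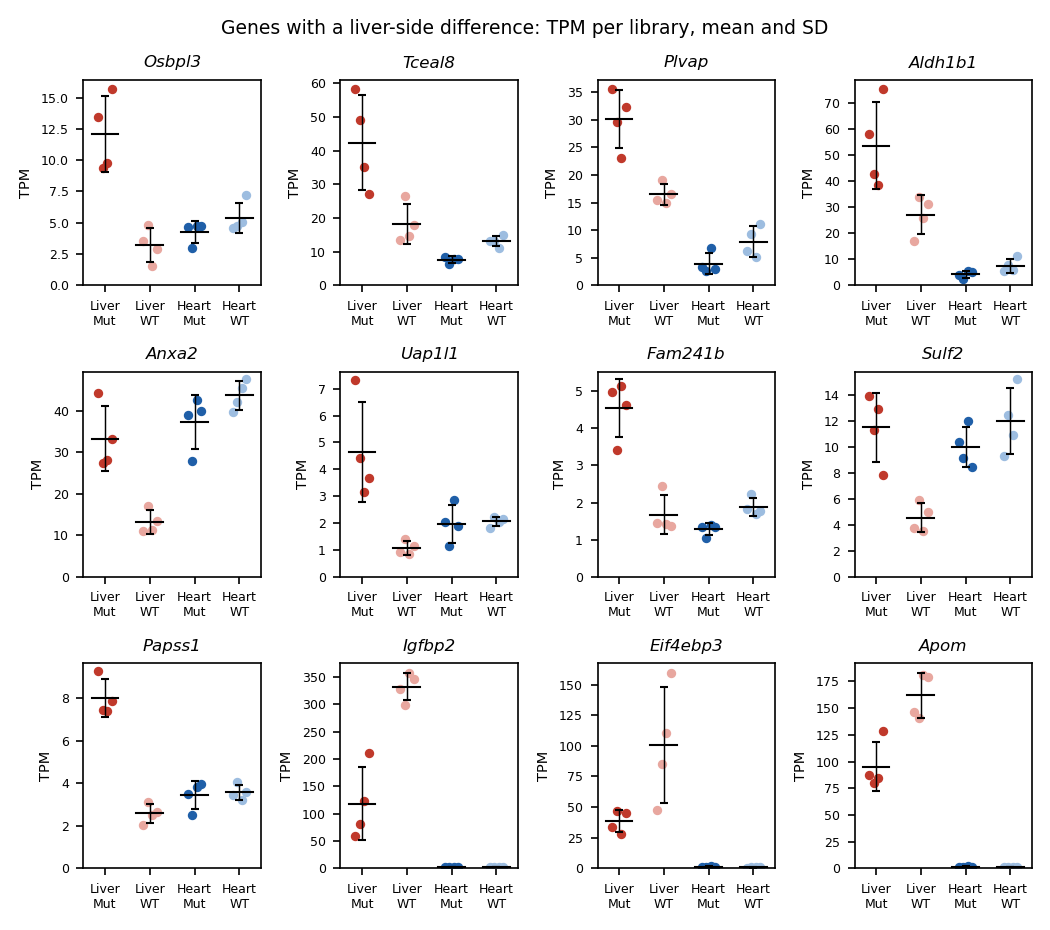
TPM of 9 liver-side rises and 3 liver-side falls in each library (points), with the mean (bar) and SD (whisker) of the 4 libraries of liver Mut, liver WT, heart Mut and heart WT. In liver the Mut libraries of Osbpl3, Tceal8, Anxa2 and Papss1 all lie above the WT libraries, and Igfbp2, Eif4ebp3 and Apom stand near 0 in heart.

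Only 4 liver-side genes fell in liver Mut, and 3 of them stood in WT heart at under 1% of their liver level. With median-ratio scaling there were 51 liver-side genes, of which 33 rose and 18 fell. Igfbp2, a carrier of insulin-like growth factors made by hepatocytes, had 58.6, 81.3, 122 and 210.2 TPM in liver Mut, against 329, 299, 357 and 346 TPM in liver WT. In heart it had 2.99, 2.43, 2.47 and 2.01 TPM in Mut, against 2.06, 2.41, 1.80 and 2.44 TPM in WT. All 4 liver Mut libraries were below the WT libraries, with a spread among the Mut libraries wider than that of WT. The difference was -1.77 (SE 0.36, adjusted p = 0.0231), and the call was lost without heart WT library 2 or 4, heart Mut library 1 or 2, or liver WT library 3 (adjusted p = 0.0506 to 0.0597, range over its alternatives 0.000818 to 0.0681), while the liver call held in each.

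Eif4ebp3, a repressor of cap-dependent translation, averaged 38.4 ± 9.11 TPM in liver Mut and 101 ± 47.0 TPM in liver WT, and 1.28 ± 0.331 TPM in heart Mut and 0.854 ± 0.325 TPM in heart WT (SD, n = 4 each). Apom, an apolipoprotein of high-density lipoprotein, averaged 95.3 ± 22.7 TPM in liver Mut and 162 ± 21.2 TPM in liver WT, and 1.42 ± 0.400 TPM in heart Mut and 1.24 ± 0.141 TPM in heart WT (SD, n = 4 each). Igfbp2, Eif4ebp3 and Apom stood in WT heart at 0.655% to 0.848% of their WT liver level, where hepatocyte markers stood at 0.835% to 1.14%, so their heart effects are not read. Rapgef4, a cAMP-activated exchange factor for Rap GTPases, stood in WT heart at 10.4% of its liver level and averaged 41.7 ± 5.99 TPM in liver Mut and 70.1 ± 6.77 TPM in liver WT, and 7.13 ± 0.836 TPM in heart Mut and 7.30 ± 0.923 TPM in heart WT (SD, n = 4 each). The differences were -1.57 for Eif4ebp3 (adjusted p = 0.0439), -0.87 for Apom (adjusted p = 0.0439) and -0.71 for Rapgef4 (adjusted p = 0.0388). These 3 difference calls were fragile: of the fits that left out a library Eif4ebp3 kept its call only without heart Mut library 3 or liver WT library 1 or 2, Apom and Rapgef4 were each called in 5 of the 16 fits that left out a library, and the adjusted p in the fits without a call was 0.0511 to 0.0984 for Eif4ebp3, 0.0544 to 0.0984 for Apom and 0.0517 to 0.0886 for Rapgef4. Their liver effects of -1.27, -0.78 and -0.74 were called in all 16. With genes restricted to those at 5% or more of the other tissue's level, a limit added after the data were seen, 164 differences were called, 163 higher and 1 lower.

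The heart-side genes were led by 3 atrial genes, Myl7, Myl4 and Nppa, whose windows around the start of transcription are shown because the genes fell together. The windows are from RefSeq on GRCm38.p6 and run from 250 bases before to 50 bases after the start, on the strand of the gene. Myl7 lies at chr11:5898733-5899032 on the minus strand, Myl4 at chr11:104550413-104550712 on the plus strand and Nppa at chr4:148000472-148000771 on the plus strand. Capitals mark matches, on either strand, to the GATA element NGATAA and to the NKX2-5 element TNAAGTG, elements bound by cardiac transcription factors.
Myl7: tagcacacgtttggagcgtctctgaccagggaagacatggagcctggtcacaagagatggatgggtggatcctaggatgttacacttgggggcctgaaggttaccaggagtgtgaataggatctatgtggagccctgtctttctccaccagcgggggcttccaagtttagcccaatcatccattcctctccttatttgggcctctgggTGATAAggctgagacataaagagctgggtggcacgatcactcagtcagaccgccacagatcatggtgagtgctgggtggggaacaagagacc
Myl4: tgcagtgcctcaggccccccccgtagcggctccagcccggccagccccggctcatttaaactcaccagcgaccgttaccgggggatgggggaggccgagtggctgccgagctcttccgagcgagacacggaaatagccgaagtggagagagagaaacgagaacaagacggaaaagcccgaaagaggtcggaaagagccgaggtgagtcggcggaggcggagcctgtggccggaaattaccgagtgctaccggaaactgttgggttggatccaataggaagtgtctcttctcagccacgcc
Nppa: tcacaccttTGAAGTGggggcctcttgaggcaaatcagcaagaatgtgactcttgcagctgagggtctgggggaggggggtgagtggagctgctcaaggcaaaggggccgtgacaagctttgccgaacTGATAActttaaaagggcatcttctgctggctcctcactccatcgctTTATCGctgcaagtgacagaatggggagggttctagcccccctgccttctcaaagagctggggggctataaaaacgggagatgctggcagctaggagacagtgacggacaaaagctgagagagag
The Myl7 window held 1 GATA element, 42 bases before the start. The Nppa window held the NKX2-5 element 241 bases before the start and GATA elements 122 and 75 bases before it, the last of them on the reverse strand. Of 32851 such windows, 25.3% held a GATA element and 11.5% an NKX2-5 element. Of the 5 tested atrial genes with a window, 3 held a GATA element and 1 an NKX2-5 element in any window they have. These counts of genes are not directly comparable with the shares of windows. A match, here and in other windows, is a description of these letters and not a binding site. The Myl4 window held neither.

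Myl7 (chr11:5896637-5898782 (- strand)), the atrial regulatory myosin light chain, had 2.64, 3.76, 20.6 and 2.74 TPM in heart Mut, against 371, 555, 96.8 and 626 TPM in heart WT. In liver it had 3.09, 4.25, 3.42 and 3.47 TPM in Mut, against 3.44, 4.30, 4.11 and 4.40 TPM in WT. Every heart Mut library lay below every heart WT library, with heart Mut library 3 above the other Mut libraries and heart WT library 3 below the other WT libraries. The heart mean was 55.3 times as high in WT as in Mut, the log2 fold change was -5.78 (SE 0.52, adjusted p = 2.14e-05), and the liver minus heart difference was 5.62 (SE 0.74, adjusted p = 0.00224).

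Myl4, the atrial essential myosin light chain, had 2.95, 3.18, 17.1 and 2.92 TPM in heart Mut, against 278, 423, 68.8 and 501 TPM in heart WT, and 3.10 to 4.02 TPM in liver Mut, against 2.72 to 3.62 TPM in liver WT. The same 2 heart libraries, Mut 3 and WT 3, stood apart from their groups, and the other 3 heart Mut libraries of both genes lay at the level of the liver libraries. Its difference was 5.54 (SE 0.72, adjusted p = 0.00224). Nppa, the atrial natriuretic peptide, had 68.0, 14.6, 47.2 and 46.0 TPM in heart Mut, against 763, 1288, 143 and 2049 TPM in heart WT, and 8.33 to 10.2 TPM in liver Mut, against 7.78 to 9.71 TPM in liver WT. Its groups did not overlap in heart, and heart WT library 3 was again the lowest of WT. The Nppa difference was 4.29 (SE 0.81, adjusted p = 0.0187), a call lost without heart WT library 2 (adjusted p = 0.0507, range over its alternatives 9.97e-05 to 0.0587) while the heart call held.

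In WT liver Myl7, Myl4 and Nppa stood at 0.823% to 0.986% of their heart level, below the 1.50% to 4.93% at which ventricular markers stood there. Their liver values are therefore not read as liver expression, and the difference for them is the heart effect alone. In bulk tissue, fewer atrial cells in a sample and less RNA per atrial cell cannot be told apart. Of the 15 atrial markers, 7 were tested, all 7 were lower in heart Mut, and 3 had a called heart effect, beside 0.151% of all genes. With median-ratio scaling or rescaling 6 of the 7 were lower. The 15 markers summed to 264, 368, 375 and 389 TPM over the heart Mut libraries, against 591, 1795, 2762 and 3831 TPM over the heart WT libraries. The ventricular markers had a median heart effect of -0.22 with 0 of 12 called (4 at an unadjusted limma p under 0.05), beside -0.11 for all genes. The number of heart-side genes ran between 3 without heart WT library 2 and 15 without heart WT library 3, and was 12 without heart WT library 1, 13 without heart Mut library 3 and 4 without heart WT library 4, heart Mut library 1, liver WT library 3 or liver Mut library 1.

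The other heart-side genes fell by less. Ramp1, an accessory protein of the receptor for calcitonin gene-related peptide, had 1.55, 1.02, 2.16 and 0.936 TPM in heart Mut, against 3.27, 3.94, 3.74 and 4.07 TPM in heart WT, and 2.12, 2.37, 1.50 and 2.14 TPM in liver Mut, against 1.43, 1.74, 1.47 and 1.75 TPM in liver WT. Its heart groups did not overlap and its liver groups did. The difference was 1.22 (SE 0.20, adjusted p = 0.00856), with 0.22 in liver and -1.001 in heart. Chd2, a chromatin remodeller, averaged 6.01 ± 0.635 TPM in heart Mut and 8.94 ± 0.576 TPM in heart WT, and 9.37 ± 0.726 TPM in liver Mut and 8.71 ± 0.696 TPM in liver WT (SD, n = 4 each), with a difference of 0.60 (SE 0.12, adjusted p = 0.0270). The Chd2 difference was lost without heart WT library 2 or 4, heart Mut library 1, liver WT library 1 or 3, or liver Mut library 1 (adjusted p = 0.0536 to 0.0729). Its heart call was lost without heart WT library 2, 3 or 4 or heart Mut library 1, 2 or 4 (adjusted p = 0.0563 to 0.135). The remaining 2 of the 7 heart-side genes have provisional names, Gm12161 and Gm15787.

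**Figure D4:**
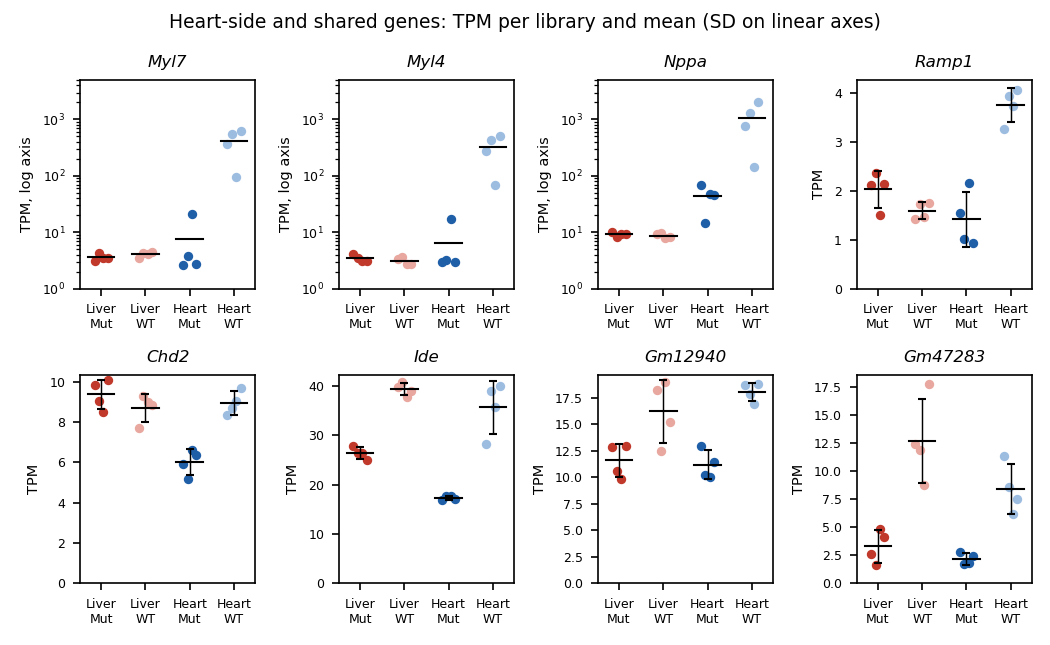
TPM of 5 heart-side and 3 shared genes in each library (points) with the mean (bar) of the 4 libraries of liver Mut, liver WT, heart Mut and heart WT, on log axes for Myl7, Myl4 and Nppa and on linear axes with the SD (whisker) for the others. Heart Mut lies below heart WT for all 8 genes, and liver Mut lies below liver WT in every library for Ide and Gm47283.

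The shared changes were 3 genes called in both tissues, all lower in Mut, against 8.81% of genes called in liver and 0.151% in heart. Ide (chr19:37268743-37337852 (- strand)), the protease that degrades insulin, had 27.9, 26.3, 26.4 and 24.9 TPM in liver Mut, against 39.8, 40.7, 37.8 and 39.0 TPM in liver WT, and 16.8, 17.7, 17.7 and 17.0 TPM in heart Mut, against 28.1, 38.9, 35.7 and 39.9 TPM in heart WT. The groups did not overlap in either tissue. Its log2 fold change was -0.56 in liver (SE 0.09, adjusted p = 0.00255) and -0.99 in heart (SE 0.09, adjusted p = 2.14e-05), and both calls held in each of the 16 fits that left out a library. The difference between the effects was 0.43 with a 95% interval of 0.15 to 0.71 and missed the threshold (adjusted p = 0.0845), and with median-ratio scaling it was 0.19 (adjusted p = 0.519).

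Of the 11 genes tested within 1 Mb of Ide, measured between lower coordinates, 3 were called in liver (Cpeb3, Exoc6 and Rbp4). In heart 1 was called (Btaf1), and 0 in the difference. Of all genes 8.81% were called in liver, 0.151% in heart and 1.67% in the difference. Btaf1, an ATPase that removes the TATA-binding protein from DNA, had 2.12, 2.07, 2.08 and 2.26 TPM in heart Mut, against 3.28, 3.37, 3.39 and 3.26 TPM in heart WT, and 4.00 to 5.29 TPM in liver Mut, against 4.37 to 5.50 TPM in liver WT. Its heart groups did not overlap, and its heart effect was -0.47 (adjusted p = 0.0454), a call lost in 13 of the 16 fits that left out a library, each of the 8 heart libraries among them (adjusted p = 0.0536 to 0.196). The call was also lost with median-ratio scaling, with rescaling, with all 32 libraries in 1 fit and with each tissue fitted on its own.

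The other shared genes have provisional names and were named after their values were seen. Gm47283, annotated as protein coding on chromosome Y, had 2.63, 1.60, 4.86 and 4.10 TPM in liver Mut, against 12.4, 11.9, 8.75 and 17.8 TPM in liver WT, and 2.82, 1.70, 1.83 and 2.48 TPM in heart Mut, against 11.4, 8.62, 6.17 and 7.52 TPM in heart WT. The groups did not overlap in either tissue, and the effects were -1.70 in liver (adjusted p = 0.000931) and -1.54 in heart (adjusted p = 0.00819). Gm12940, a processed transcript, averaged 11.6 ± 1.56 TPM in liver Mut and 16.2 ± 2.97 TPM in liver WT, and 11.2 ± 1.35 TPM in heart Mut and 18.0 ± 0.874 TPM in heart WT (SD, n = 4 each). Its effects were -0.44 in liver (adjusted p = 0.0334) and -0.65 in heart (adjusted p = 0.0398), of which the liver call was lost without 5 libraries and the heart call without 11 (adjusted p of up to 0.114 and 0.170). On the other scalings its heart effect missed the threshold, at an adjusted p of 0.177 for median-ratio values and 0.215 for rescaled ones, so that 2 of the 3 shared genes, Ide and Gm47283, were shared under all 3 scalings. The mean effect over both tissues was called for 145 genes (1.37%), 66 higher (0.622%) and 79 lower (0.745%) in Mut, and with median-ratio scaling for 990 (9.33%), 424 higher (4%) and 566 lower (5.34%). With rescaling it was called for 1200, 959 higher and 241 lower, so that the balance of the calls turned with the scaling. Across the tissues, 53 genes had groups that did not overlap in the same direction in both, 4 upward and 49 downward (0.5%), and 36 stood apart upward in liver and downward in heart.

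Of the 16 heart calls on TPM, 1 was a rise. Rab4a, a GTPase that returns endocytosed receptors to the cell surface, had 6.53, 5.65, 5.23 and 6.19 TPM in heart Mut, against 2.50, 3.37, 2.92 and 3.74 TPM in heart WT, and 29.1, 31.0, 22.8 and 27.1 TPM in liver Mut, against 18.8, 24.9, 25.9 and 22.6 TPM in liver WT. Every heart Mut library lay above every heart WT library, and the liver groups overlapped. The heart effect was 0.74 (SE 0.12, adjusted p = 0.0130), lost without heart Mut library 1 or 4 (adjusted p = 0.0639 to 0.0706), and the liver effect was 0.25 (adjusted p = 0.204). The liver minus heart difference of -0.50 missed the threshold on TPM (95% interval -0.86 to -0.14, adjusted p = 0.106) and passed with median-ratio scaling (-0.72, adjusted p = 0.0448). Of the 26 genes tested within 1 Mb of Rab4a, 3 were called in liver (Spg7, Gm4316 and Ttc13), where 8.81% of all genes were called, 0 in heart and 0 in the difference.

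Lists of genes for tissue pathways and cell types gave few called differences, and each list is described by its counts and its median beside all genes tested. The median difference of all genes was 0.22 on TPM and 0.00 with median-ratio scaling, and 1.67% of genes had a called difference. Counts of members by sign on TPM are read beside that median of 0.22. On TPM 8.81% of all genes were called in liver, 7.9% higher and 0.914% lower in Mut, and 0.151% in heart. For 10 named genes with a called difference, Aldh1b1, Srxn1, Eif2ak3, Col1a1, Mcm2, Mcm4, Ccnd1, Pik3r1, Atp6v1a and Cd68, the call was lost without each of 7 libraries: heart Mut library 1 or 2, heart WT library 2 or 4, liver Mut library 1, and liver WT library 1 or 3. Their adjusted p when lost lay between 0.05005 and 0.115. Of these 10, Aldh1b1 and Srxn1 passed with median-ratio scaling.

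In the NRF2 list of antioxidant genes, 22 of 24 members had a higher effect in liver than in heart on TPM and 16 of 24 with median-ratio scaling, with 1 called difference, Srxn1. The median difference was 0.33 on TPM and 0.08 with median-ratio scaling. In liver 6 of 24 were called, all higher in Mut (Nqo1, Hmox1, Gclc, Srxn1, Gsta1 and Gstm2), beside 8.81% of all genes, and in heart 0 (0 also at an unadjusted limma p under 0.05). Srxn1, the sulfiredoxin that restores oxidised peroxiredoxins, had 35.5, 27.6, 24.2 and 27.0 TPM in liver Mut, against 13.3, 19.1, 15.1 and 15.7 TPM in liver WT, and 7.08 to 11.8 TPM in heart Mut, against 8.78 to 13.1 TPM in heart WT. The liver groups did not overlap and the heart groups did, and the difference was 0.97 (SE 0.21, adjusted p = 0.0374, 0.0495 with median-ratio scaling).

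The start window of Srxn1, from RefSeq on GRCm38.p6 at chr2:152105274-152105573 on the plus strand, is shown for the antioxidant response element TGACNNNGC, the element to which NRF2 binds, in capitals where it occurs on either strand.
Srxn1: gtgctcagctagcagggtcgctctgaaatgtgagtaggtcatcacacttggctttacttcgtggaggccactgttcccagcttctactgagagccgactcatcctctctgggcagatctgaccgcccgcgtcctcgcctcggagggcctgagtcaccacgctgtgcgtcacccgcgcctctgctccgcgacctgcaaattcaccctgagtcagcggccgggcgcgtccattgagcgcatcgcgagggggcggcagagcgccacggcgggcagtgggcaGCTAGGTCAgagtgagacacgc
It held 1 match to these letters, on the reverse strand and beginning 28 bases after the start. Other forms of the element were not searched for. Of 32851 windows 12.4% held the element, and of the 20 tested genes of the list with a window 9 did (45.0%). The first share counts windows and the second counts genes with a match in any window they have, so they are not directly comparable.

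Gsta1, a glutathione transferase, had 26.3, 10.3, 8.66 and 15.0 TPM in liver Mut, against 1.29, 3.83, 1.07 and 0.268 TPM in liver WT, and 2.55, 1.97, 1.58 and 4.54 TPM in heart Mut, against 1.93, 1.40, 1.36 and 0.499 TPM in heart WT. Its groups stood apart in liver and overlapped in heart, with effects of 2.67 in liver (adjusted p = 0.000926) and 0.65 in heart (adjusted p = 0.413), and the difference of 2.02 missed the threshold (adjusted p = 0.0540). Members of the glutathione transferase families are alike in sequence, and how reads were divided between them is not given in the sources used here. Gstm2 averaged 109 ± 34.9 TPM in liver Mut and 61.5 ± 6.00 TPM in liver WT (SD, n = 4 each), and its difference of 1.02 also missed the threshold (adjusted p = 0.0557). Its liver call was lost without liver WT library 3 or liver Mut library 1 or 2 (adjusted p = 0.0524 to 0.0773).

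In the list of DNA replication and cell cycle genes, 17 of 17 members had a higher effect in liver than in heart on TPM and 13 of 17 with median-ratio scaling. The median difference was 0.51 on TPM and 0.30 with median-ratio scaling. The difference was called for 4, Mcm2, Mcm4, Mcm6 and Ccnd1, on TPM and for 0 with median-ratio scaling. In liver 6 were called higher in Mut, those 4 with Mcm3 and Mcm5, beside 7.9% of all genes. The fits that left out a library gave 6 to 7 liver calls. Ccnd1, the cyclin that carries cells out of the resting state, had 14.4, 8.64, 9.84 and 27.4 TPM in liver Mut, against 3.43, 4.64, 3.38 and 3.26 TPM in liver WT, and 14.1, 10.6, 14.9 and 20.7 TPM in heart Mut, against 15.6, 12.3, 12.4 and 12.6 TPM in heart WT. All liver Mut libraries lay above all liver WT libraries, and liver Mut library 4 was the highest. Its difference was 1.51 (SE 0.36, adjusted p = 0.0439, 0.0998 with median-ratio scaling). Mcm2, a subunit of the replicative helicase, averaged 3.01 ± 0.810 TPM in liver Mut and 0.987 ± 0.129 TPM in liver WT, and 1.89 ± 0.612 TPM in heart Mut and 1.75 ± 0.186 TPM in heart WT (SD, n = 4 each), with a difference of 0.95 (adjusted p = 0.0375). Mcm4 of the same helicase had a difference of 0.89 (adjusted p = 0.0377).

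Genes of the extracellular matrix had a median difference of 0.43 on TPM and 0.22 with median-ratio scaling over 24 tested members. In liver 8 were called, all higher in Mut, beside 7.9% of all genes called higher. The fits that left out a library gave 4 to 11 liver calls, the fewest without liver Mut library 1 or liver WT library 1 or 3. In heart 0 were called (1 at an unadjusted limma p under 0.05), and the difference was called for 1, Col1a1. Col1a1, a chain of type I collagen, had 5.43, 3.92, 3.86 and 6.94 TPM in liver Mut, against 1.78, 2.42, 1.50 and 1.63 TPM in liver WT, and 6.34 to 13.3 TPM in heart Mut, against 9.25 to 11.4 TPM in heart WT. Its liver groups did not overlap, and the difference was 1.14 (SE 0.27, adjusted p = 0.0439, 0.0704 with median-ratio scaling). The liver effects of Col1a2 (0.84, adjusted p = 0.00977) and Col3a1 (1.16, adjusted p = 0.00580) were called, and their differences of 0.94 (adjusted p = 0.0578) and 1.17 (adjusted p = 0.0589) were not.

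Markers of other cell types are given beside these liver rises, and their part in them was not tested. The 8 cholangiocyte markers summed to between 37.6 and 55.3 TPM in liver Mut and between 26.0 and 33.9 TPM in liver WT, and the 12 adipocyte markers to between 696 and 919 TPM in liver Mut and between 550.4 and 678 TPM in liver WT. Neither pair of groups overlapped. None of the 8 cholangiocyte markers reached the level for testing in both tissues. Of 11 tested adipocyte markers 1, Cd36, was called in liver, beside 8.81% of all genes. Cd36 is among the 12 summed adipocyte markers, so that sum is not separate from the Cd36 rise given below. The 15 macrophage markers summed to 186, 221, 235 and 532 TPM over the liver Mut libraries, against 79.1, 110, 123 and 277 TPM over the liver WT libraries, so that the groups overlapped. In heart they summed to between 105 and 198 TPM in Mut and between 150.4 and 234 TPM in WT. All 11 tested macrophage markers had a higher effect in liver than in heart on TPM (10 with median-ratio scaling), with a median difference of 1.13 on TPM and 0.90 with median-ratio scaling. In liver 3 were called, Cd68, C1qc and Cd14, beside 7.9% of all genes called higher. The fits that left out a library gave between 1 and 9 liver calls. There were 9 without liver WT library 4 and 1 without heart Mut library 1, heart WT library 2 or 3, liver Mut library 1 or 4, or liver WT library 1, 2 or 3. Cd68, a lysosomal protein of macrophages, had 8.90, 5.97, 6.68 and 10.5 TPM in liver Mut, against 2.65, 2.68, 2.33 and 5.61 TPM in liver WT, and 2.67 to 4.42 TPM in heart Mut, against 3.19 to 4.68 TPM in heart WT. Its difference was 1.16 (SE 0.28, adjusted p = 0.0471, 0.0973 with median-ratio scaling). The 13 fibroblast and stellate markers summed to between 173 and 257 TPM in liver Mut and between 145 and 191 TPM in liver WT, which overlapped. Of 11 tested, 3 were called in liver, beside 7.9% of all genes called higher. They were the collagen genes Col1a1, Col1a2 and Col3a1 given above, so these calls are not separate from the matrix rises. The list had a median difference of 0.46 on TPM and 0.23 with median-ratio scaling.

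Lysosomal genes had 7 of 23 members called in liver, all higher in Mut, beside 7.9% of all genes called higher. Their 1 called difference was Atp6v1a, a subunit of the proton pump that acidifies lysosomes. Atp6v1a averaged 19.6 ± 2.28 TPM in liver Mut and 13.4 ± 0.877 TPM in liver WT, and 5.52 ± 0.778 TPM in heart Mut and 5.76 ± 0.297 TPM in heart WT (SD, n = 4 each), with a difference of 0.57 (adjusted p = 0.0439). The median difference of the list was 0.27 on TPM and 0.03 with median-ratio scaling, and 3 members were called in liver without liver Mut library 1 or liver WT library 3. Peroxisomal genes had 8 of 24 members called in liver, all higher in Mut, beside 7.9% of all genes called higher. They had 0 called differences in limma on TPM or with either other scaling (13 at an unadjusted p under 0.05 on TPM). The count in liver was 1 without liver Mut library 1 or liver WT library 3. Pex11a, which divides peroxisomes, rose in liver by 0.60 on the log2 scale (adjusted p = 0.0216), and Ehhadh, of peroxisomal fatty acid oxidation, by 0.53 (adjusted p = 0.0315). Both calls were lost without liver WT library 3 or liver Mut library 1, and that of Ehhadh also without liver WT library 1 or liver Mut library 4.

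Among markers of fat cells, Cd36, a fatty acid receptor and transporter, had 217, 171, 144 and 131 TPM in liver Mut, against 60.2, 90.7, 54.3 and 76.8 TPM in liver WT, and 774 to 899 TPM in heart Mut, against 719 to 851 TPM in heart WT. It stood highest in heart, where the groups overlapped, and every liver Mut library lay above every liver WT library. The difference was 1.20 (SE 0.22, adjusted p = 0.0178), lost without heart WT library 4 (adjusted p = 0.0503) and with median-ratio scaling (adjusted p = 0.0570). Among genes of insulin and IGF signalling, 5 of 24 were called in liver, beside 8.81% of all genes. Pik3r1 and Pik3cb were higher and Ide, Irs2 and Igfbp2 lower in Mut, and the difference was called for Pik3r1 and Igfbp2. Pik3r1, the regulatory subunit of the kinase downstream of the insulin receptor, averaged 31.8 ± 2.97 TPM in liver Mut and 20.2 ± 2.28 TPM in liver WT, and 20.7 ± 0.988 TPM in heart Mut and 23.4 ± 4.50 TPM in heart WT (SD, n = 4 each). Its difference was 0.78 (adjusted p = 0.0375, 0.132 with median-ratio scaling).

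Of 23 chaperone and unfolded protein response genes, 2 were called in liver, P4hb and Eif2ak3, a share near the 8.81% of all genes called there, and 0 without liver Mut library 1 or liver WT library 3. Eif2ak3, the kinase PERK of the endoplasmic reticulum, had a difference of 0.61 (adjusted p = 0.0465), and P4hb, a protein disulphide isomerase, one of 0.55 that missed the threshold (adjusted p = 0.0618). Interferon-stimulated genes had 5 of 27 members called in liver, beside 8.81% of all genes, among them Gbp7 (0.54 on the log2 scale, adjusted p = 0.0175). They had 0 called differences (6 at an unadjusted limma p under 0.05). Their median effect was 0.35 in liver and 0.07 in heart on TPM, and 0.25 in liver and 0.16 in heart with median-ratio scaling. In liver 1 was called without liver Mut library 1.

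Genes of cholesterol synthesis and uptake went the other way, with a median effect of -0.43 in liver and -0.08 in heart and a median difference of -0.29 over 22 members (-0.49 with median-ratio scaling). In liver 3 were called lower, beside 0.914% of all genes: Cyp51, Tm7sf2 and Nsdhl, enzymes of the later steps of sterol synthesis. Tm7sf2 had a mean of 67.5 ± 15.5 TPM in liver Mut and 149.5 ± 37.2 TPM in liver WT, and of 3.55 ± 0.554 TPM in heart Mut and 4.33 ± 0.549 TPM in heart WT (SD, n = 4 each). Its difference was -0.90 (SE 0.25), which missed the threshold on TPM (adjusted p = 0.0662) and passed with median-ratio scaling (adjusted p = 0.0455). Cyp51 had a liver effect of -1.11 (adjusted p = 0.0391) and Nsdhl of -1.02 (adjusted p = 0.0383), and each of these calls was lost without 7 of the 16 libraries (adjusted p of up to 0.0983 for Cyp51 and 0.106 for Nsdhl). Of 14 hepatocyte markers 13 were lower in liver Mut, where the median liver effect of all genes was 0.10 on TPM. One was called in liver, Apoa1, beside 8.81% of all genes, 0.914% lower. Apoa1, the main protein of high-density lipoprotein, had 5498 to 9401 TPM in liver Mut, against 9752 to 12391 TPM in liver WT. The Apoa1 difference of -0.72 missed the threshold on TPM (adjusted p = 0.0642) and passed with median-ratio scaling (adjusted p = 0.0195). In WT heart Apoa1 stood at 0.835% of its liver level, so its heart effect is not read and this difference is the liver effect alone.

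Of the 78 cytosolic ribosomal protein genes, all had a negative effect in liver and in heart under each of the 3 scalings, while on TPM 2 passed the test in liver and 0 in heart. They summed to between 20799 and 22453 TPM in liver Mut and between 21169 and 32043 TPM in liver WT, which overlapped. In heart they summed to between 10700 and 19045 TPM in Mut and between 21034 and 23732 TPM in WT, which did not overlap. On TPM the median effect was -0.31 in liver and -0.45 in heart, beside 0.10 and -0.11 for all genes. With median-ratio scaling it was -0.43 in liver and -0.32 in heart. The median difference, 0.14 on TPM and -0.10 with median-ratio scaling, thus changed sign with the scaling, and 0 of 78 differences were called in limma under each of the 3 (0 also at an unadjusted p under 0.05 on TPM). The 2 called in liver on TPM were Rpl35 (-0.43, adjusted p = 0.0152) and Rps20 (-0.49, adjusted p = 0.0497). The mean effect over both tissues was called lower on TPM for these and for Rpl13, Rpl13a, Rpl21, Rpsa, Rps24 and Rps26 (limma adjusted p = 0.0124 to 0.0473). Of all genes 0.745% had a mean effect called lower. In liver 49 of the 78 were called with median-ratio scaling, beside 13% of all genes, and 28 with rescaling, beside 1450 of 10568 genes. In heart 0 of the 78 were called under each scaling (75 at an unadjusted limma p under 0.05 on TPM). The liver count on TPM was 33 without heart Mut library 2 and 0 without liver Mut library 1 or liver WT library 3. Nuclear subunits of complex I of the respiratory chain had a median difference of 0.24 on TPM and -0.01 with median-ratio scaling. They had a median effect of -0.03 in liver and -0.32 in heart on TPM, and -0.15 in liver and -0.19 in heart with median-ratio scaling. Of 36 differences 0 were called (2 at an unadjusted limma p under 0.05). On TPM 0 were called in heart (22 at an unadjusted limma p under 0.05) and 0 in liver (6). Red blood cell markers had a median effect of 0.58 in liver and 0.94 in heart with 0 of 8 called in either tissue (0 in liver and 2 in heart at an unadjusted limma p under 0.05), and their sum reached 26381 TPM in heart Mut library 4.

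**Figure D5:**
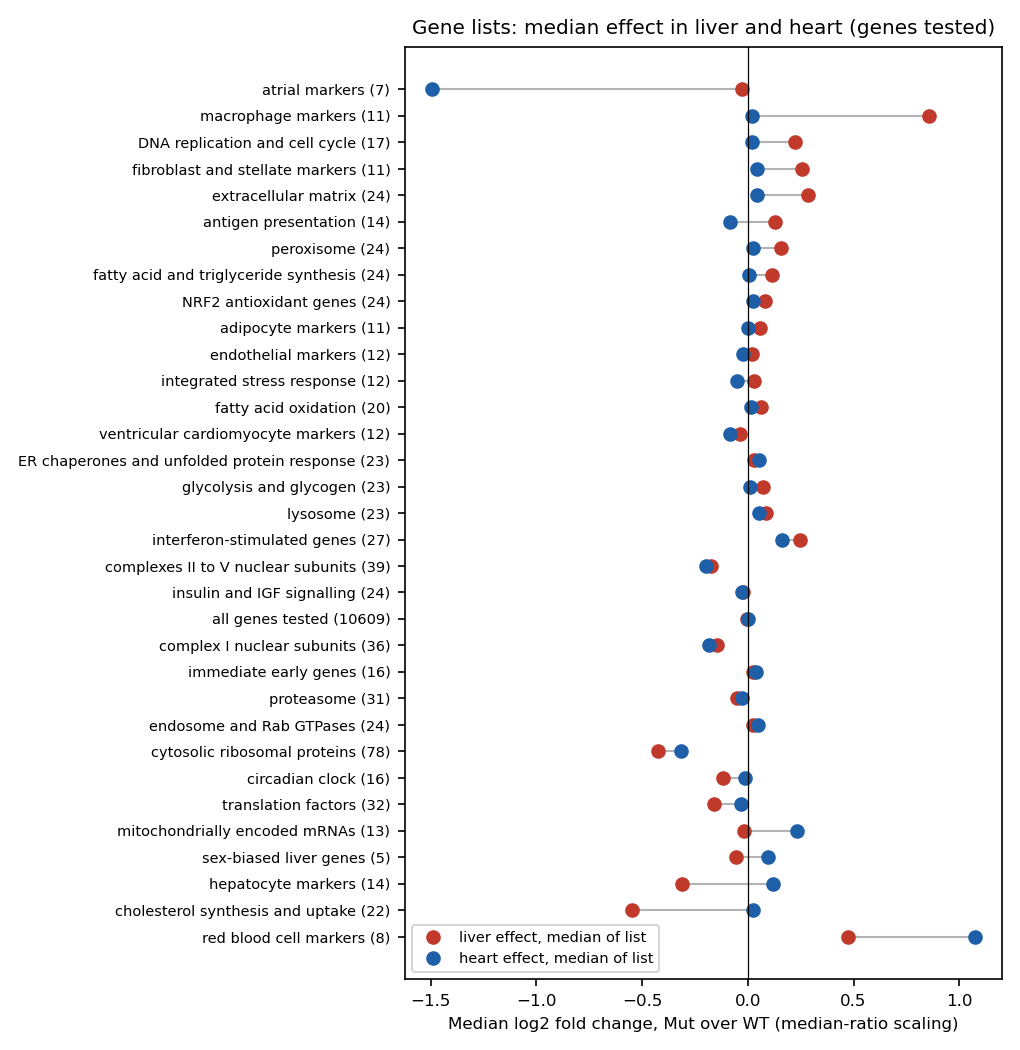
Median log2 fold change, Mut over WT, of each gene list in liver (red) and heart (blue) with median-ratio scaling within each tissue, with the number of genes tested in brackets and lists ordered by the median of their differences. Atrial markers stand at -1.49 in heart, macrophage markers at 0.86 in liver, cholesterol genes at -0.55 in liver, and ribosomal protein genes below 0 in both tissues.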

How the data were processed

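RNA sequencing of 16 heart and liver libraries was read from 1 table of TPM per transcript, the unit in which the authors deposited it. The submitters' processing notes name Salmon. Its version, the release of transcripts it used and the build are not stated by the sources used here. TPM keeps no read depth, so no counting interval is given. Of 147493 transcripts, 136081 matched GENCODE M21 (GRCm38) and were summed to 51510 genes; unmatched ones held 0.495% to 0.752% of the TPM. Smim30 was taken as ENSMUSG00000052419, named 2610001J05Rik in that annotation.

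Genes at a mean of at least 1 TPM in both tissues were fitted as log2(TPM + 1) with limma 3.58.1 (R 4.3.3, mean-variance trend) in 1 model of 4 group means. Fold changes are on that scale, which understates low genes, and p-values were adjusted by the Benjamini-Hochberg method over 10609 genes, with a threshold of 0.05. Smim30 was also tested by a two-sided exact permutation of genotype within tissue. The fit was tested on simulated data with known differences and independent noise for each gene. These data held no shift shared by the genes of a library, so they do not bear on how the calls depend on scaling.

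Genes named were Smim30, up to 8 genes per class and direction with the largest difference, called under 2 scalings with groups apart, up to 10 shared genes, up to 3 members of each of 34 lists, and called neighbours; some genes the rule gave are not reported here. Where a class held fewer than 3 such genes the second scaling was not required. Papss1, Gm12940, Gm47283 and the ribosomal protein genes named were added after their values were seen. The comparison and lists were chosen with earlier results of these data known. The submitters describe 4 individual mice for a tissue, and p-values measure the spread between these libraries. No 2 libraries held identical values. Sequences are from RefSeq. The alternatives changed the pseudocount (0.1), the filter, the scaling, the trend, the weights, a replicate block, the libraries in the fit and the threshold. Replicate numbers were checked for pairing, and not every correlation passed the limit of 0.1 set for it.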

Additional observations from a re-analysis of the deposited data

Results flagged for a closer look

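Among 208 groups of 4 libraries looked at, 16 held a library far from the other 3 by Dixon's criterion, where chance gives about 1 in 20. In liver Mut, library 4 was the highest for Apom, with 129 TPM against 80.2 to 87.0 TPM in the others, and for the macrophage marker sum, with 532 TPM. Liver Mut library 2 was the lowest for Gbp7 with 4.53 TPM. In liver WT, library 2 was the highest for Fam241b with 2.45 TPM and for Ccnd1 with 4.64 TPM, and library 4 for Cd68 with 5.61 TPM. In heart Mut, library 3 was the highest for Myl7 with 20.6 TPM, for Myl4 with 17.1 TPM and for Plvap with 6.72 TPM. Heart Mut library 2, the library with the highest mitochondrial share, was the lowest for Osbpl3 with 2.97 TPM, for Gstm2 with 56.4 TPM and for the atrial marker sum with 264 TPM. The red blood cell marker sum of heart Mut library 4 was 26381 TPM, against 3315 to 6797 TPM in the other heart Mut libraries. In heart WT, Osbpl3 was highest in library 4 with 7.20 TPM, Ccnd1 in library 1 with 15.6 TPM, and Gbp7 was lowest in library 3 with 2.48 TPM.

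For 28 of the named genes the limma test of the liver minus heart difference was called, and its log2 values are given here. For Igfbp2, Eif4ebp3, Apom, Myl7, Myl4 and Nppa the level in the other tissue is not read as expression. Their values therefore give the effect in 1 tissue alone. The values that rest on a rise in liver were 1.95 for Osbpl3, 1.87 for Tceal8, 1.70 for Plvap, 1.67 for Aldh1b1, 1.50 for Anxa2, 1.46 for Uap1l1, 1.39 for Fam241b, 1.39 for Sulf2 and 1.38 for Papss1. Among list members they were 1.51 for Ccnd1, 1.20 for Cd36, 1.16 for Cd68, 1.14 for Col1a1, 0.97 for Srxn1, 0.95 for Mcm2, 0.89 for Mcm4, 0.78 for Pik3r1, 0.61 for Eif2ak3 and 0.57 for Atp6v1a. The values that rest on a fall in liver were -1.77 for Igfbp2, -1.57 for Eif4ebp3, -0.87 for Apom and -0.71 for Rapgef4. The values that rest on a fall in heart were 5.62 for Myl7, 5.54 for Myl4, 4.29 for Nppa, 1.22 for Ramp1 and 0.60 for Chd2.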

How the results depend on the processing

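Most named genes were followed over the alternatives for their liver, heart and difference effects called on TPM, and for differences called with median-ratio scaling. None of these followed effects changed its direction, and effects that were not called were not followed. The median differences of the ribosomal and complex I genes changed sign with median-ratio scaling, and the balance of mean-effect calls turned with rescaling. Of the values of the followed effects over all alternatives, 1935 kept their side of the threshold, 344 lost the call and 12 gained one. The count of called differences, 177, was 109 with no filter, 96 with a filter at 5 TPM, 292 with 1 TPM in either tissue, 57 with median-ratio scaling, 27 with rescaling, 493 with array weights, 741 with all 32 libraries in 1 fit and 852 at an adjusted p under 0.1. Liver calls, 935, were 484 at 5 TPM, 1450 with rescaling, 1418 with all 32 libraries, 511 with each tissue fitted on its own and 1704 at 0.1. Heart calls, 16, were 36 with no filter, 9 at 5 TPM, 29 with 1 TPM in either tissue, 165 with array weights and 65 with all 32 libraries. Calls of the mean effect over both tissues, 145 (1.37%), were 79 at 5 TPM, 236 with 1 TPM in either tissue, 990 with median-ratio scaling, 1200 with rescaling (959 higher and 241 lower), 949 with array weights, 573 with all 32 libraries and 564 at 0.1. Liver-side genes, 159, were 90 with no filter, 86 at 5 TPM, 252 with 1 TPM in either tissue, 51 with median-ratio scaling, 23 with rescaling, 375 with array weights, 551 with all 32 libraries and 650 at 0.1. Heart-side genes, 7, were 17 with no filter, 2 at 5 TPM, 18 with 1 TPM in either tissue, 4 with rescaling, 42 with array weights, 28 with all 32 libraries, 11 at 0.1 and 4 among genes at 5% or more of the other tissue's level, the limit added after the data were seen. Shared genes, 3, were 5 with median-ratio scaling, 2 of the 3 among them, 24 with array weights and 8 with all 32 libraries, and opposed genes, 0, were 3 with array weights and 1 with all 32 libraries. The filters and the number of libraries change how many genes or samples are tested; the cause of the other shifts was not tested.

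Leaving out each library in turn gave 28 to 379 called differences, 298 to 1390 liver calls, 7 to 29 heart calls, 36 to 275 calls of the mean effect, 24 to 275 liver-side, 3 to 15 heart-side, 0 to 1 opposed and 2 to 3 shared genes, and a Smim30 difference of 0.29 to 0.50.

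Libraries of the same genotype and number in liver and heart correlated at 0.0168 to 0.134 in their deviations, and same-numbered Mut and WT libraries at -0.212 to 0.124, and 5 of 8 libraries correlated best with their own number, and since not every correlation passed 0.1 the numbers were not taken to pair them. With the number within each tissue as a replicate block, 68 differences, 7 heart calls, 75 calls of the mean effect, 62 liver-side and 4 heart-side genes were called, and with genotype and number as the block 218 differences, 134 of the 177 among them.

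Depth is unknown from TPM, and 4 libraries a group and the low TPM of genes such as Fam241b limit precision. Levels near 1% of the other tissue's cannot be read as expression. The liver and heart effects cannot be separated from any handling that differed between Mut and WT samples.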
